A study of Homo sapiens with 24 samples.

Results

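The 40 genes described here encode cytokines, chemokines, colony-stimulating factors, prostaglandin enzymes, adhesion molecules, NF-kB subunits and their inhibitors. They form a fixed list of NF-kB and inflammatory cytokine genes whose rule used no measured value, though it was chosen with earlier results of these data known. The list was set among 34495 genes present in at least 1 of 6 tables of normalized counts. Of the 40, 33 were listed in all 6 tables. The data came from poly(A) RNA of 24 libraries in 8 groups of 3. The human glioma lines U87-R and LN229-R, which are temozolomide-resistant, and U87 MG and LN229, the lines they are set against, each received 50 µM STM2457 for 96 h or the same volume of DMSO. STM2457 inhibits METTL3, the enzyme that writes N6-methyladenosine into messenger RNA. Temozolomide, the alkylating drug used against glioma, was also present at 50 µM in the medium of both resistant lines, with STM2457 and with DMSO. The medium of U87 MG and LN229 held none. Resistance and the drug in the medium therefore cannot be told apart where a resistant line is set against U87 MG or LN229. The same holds where their STM2457 effects are set against each other. The U87 lines grew in EMEM with 10% serum and were sequenced from a TruSeq Stranded kit, whereas the LN229 lines grew in DMEM with 5% serum and were sequenced from a Watchmaker kit. Cell background, medium and kit therefore cannot be told apart between the families. Neither the derivation of the resistant lines nor separate cultures for the replicates is stated in the labels, so p-values measure the spread between these libraries, which may be technical.

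NF-kB is a family of dimeric transcription factors built from RELA, RELB, REL, NFKB1 and NFKB2. In resting cells the dimers are held in the cytoplasm by inhibitors of the IkB class, such as the NFKBIA product. Tumour necrosis factor, interleukin-1 and Toll-like receptor ligands activate a kinase complex that marks these inhibitors for destruction. The freed dimers then induce cytokine, chemokine and adhesion genes together with NFKBIA and TNFAIP3, whose products switch the pathway off again. In glioblastoma, NF-kB activity is known from the mesenchymal state of the tumour cells, which secrete IL6, CXCL8 and CCL2.

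Each table held 6 libraries and had been normalized on its own, with totals of 21232924 to 25349361 normalized counts per library in the U87 tables and 24101385 to 28716587 in the LN229 tables. Levels were therefore compared only within a table. Leukocyte genes were scarce beside the list of glioma and glial genes. They summed to 2.71 to 33.4 normalized counts per library, against at least 73220 for the glioma and glial genes. AIF1, TYROBP and CD3E were listed in no table. Endothelial genes, of which 2 to 4 of 4 were listed per table, summed to 12.4 to 178.6 normalized counts. Among the glial markers GFAP was low, and S100B was near 0 in the U87 lines. SOX2 was not listed in the U87 resistance table or in the U87-R table of STM2457. The sum of the list therefore does not by itself name the cells. In both LN229 lines the summed glioma and glial markers were lower with STM2457, at 73220 to 109100 normalized counts in LN229-R and 74620 to 88140 in LN229, against 112800 to 132000 and 101600 to 107500 with DMSO. Within that sum S100B and OLIG2 fell in both lines and NES, VIM and SOX2 in LN229, whereas CD44 rose, by 1.53 in LN229-R and 1.24 in LN229 on the log2 scale. The summed endothelial markers were higher with STM2457 in LN229, at 78.7 to 178.6 normalized counts against 45.1 to 67.7 with DMSO. There CDH5 (1.53, adjusted p = 0.014) and PECAM1 (1.59, adjusted p = 0.036) were called higher. CDH5 had a DMSO mean of 6.5, and only its treated group brought it to the mean of 10 needed for testing. Its call is therefore no support for a change. In LN229-R, where 2 of the 4 endothelial markers were listed, the sums overlapped, at 72.7 to 105.1 with STM2457 and 44.3 to 98.4 with DMSO. The part of these shifts in the results below was not tested.

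The names of the LN229 libraries conflict between tables. Each of the 6 columns of the table that sets LN229-R against LN229 was closest, by the spread of its log2 ratios, to the DMSO library of the other line with the same number in the STM2457 tables. That SD was 0.0568 to 0.0615 against the other line and 0.300 to 0.363 against the line of the same name. All 6 U87 columns were closest to the library of the same name. The direction of the LN229 resistance comparison therefore depends on which table is named correctly, and its groups are called here the libraries labelled LN229-R and labelled LN229. If the resistance table is misnamed, or the treated and vehicle columns of the STM2457 tables are misnamed together, an STM2457 effect keeps its sign. The treated columns were not part of this matching, so a swap of the vehicle columns alone was not tested. Under such a swap, the LN229 effects would mix treatment with line. Which of the LN229 lines an effect belongs to also rests on the names in the STM2457 tables.

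Individual libraries also stood apart across these genes. In U87 MG, replicate 1 was the lowest of its group in 26 of 37 tested members with STM2457 and in 31 of 37 with DMSO. It was the lowest in both treatments at once in 25 of 37 members, against 19.16% of all genes tested. IL1B, a secreted activator of the pathway, is an example, at 1185, 6343 and 8624 normalized counts in replicates 1 to 3 of U87 MG with STM2457 and 1154, 5811 and 4559.9 with DMSO. In LN229 with STM2457, replicate 2 was the highest in 26 of 31 tested members, against 36.69% of all genes. In LN229-R, replicate 2 was the highest in 17 of 31 with STM2457, against 37.57% of all genes. It was also the highest in 17 of 31 with DMSO, against 41.82%. It was the highest in both treatments at once in 13 of 31 members, against 22.38% of all genes.

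**Figure D1:**
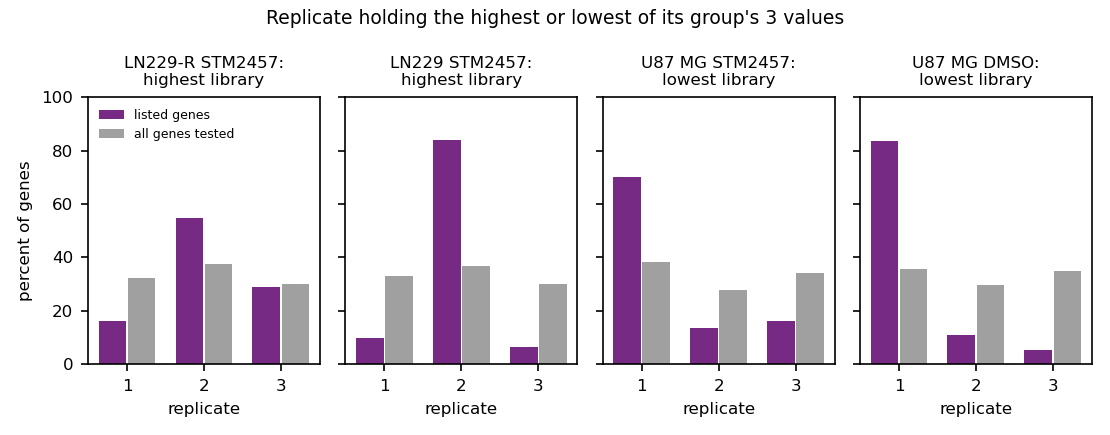
Percent of genes (y axis) for which each replicate (x axis) held the highest or lowest of the 3 normalized counts of its group, for the listed genes (purple, 31 genes in the LN229 tables and 37 in the U87 MG table) and all genes tested (grey). Replicate 2 of LN229 with STM2457 was the highest in 83.87% of the listed genes, and replicate 1 of U87 MG was the lowest in 70.27% with STM2457 and in 83.78% with DMSO.

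Promoter sequences are shown for 5 members whose values carry the results: NFKBIA and CXCL1 as an inhibitor and a chemokine, ICAM1 and VCAM1 as adhesion molecules, and TNFAIP2. Each is a RefSeq window on GRCh38.p14 of 300 bases, printed 5′ to 3′ on the strand of the gene. It runs from 250 bases before to 50 after a transcription start, which need not be the outermost start of the gene. The ICAM1 window lies inside the annotated gene. The capitals mark matches to GGNNTTTCC, a spelling of the NF-kB binding element in which N is any base, or to its reverse complement GGAAANNCC.
NFKBIA: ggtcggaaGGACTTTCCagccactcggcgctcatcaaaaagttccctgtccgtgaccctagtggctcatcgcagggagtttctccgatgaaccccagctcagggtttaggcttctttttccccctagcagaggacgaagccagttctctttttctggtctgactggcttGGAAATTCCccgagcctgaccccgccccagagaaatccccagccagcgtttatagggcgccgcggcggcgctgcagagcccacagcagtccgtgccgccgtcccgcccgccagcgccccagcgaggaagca
ICAM1: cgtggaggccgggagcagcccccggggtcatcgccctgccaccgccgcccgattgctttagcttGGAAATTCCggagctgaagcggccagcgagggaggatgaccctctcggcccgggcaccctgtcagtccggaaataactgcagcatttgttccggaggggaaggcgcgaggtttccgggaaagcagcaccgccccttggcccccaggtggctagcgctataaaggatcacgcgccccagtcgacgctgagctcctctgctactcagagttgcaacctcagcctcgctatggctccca
CXCL1: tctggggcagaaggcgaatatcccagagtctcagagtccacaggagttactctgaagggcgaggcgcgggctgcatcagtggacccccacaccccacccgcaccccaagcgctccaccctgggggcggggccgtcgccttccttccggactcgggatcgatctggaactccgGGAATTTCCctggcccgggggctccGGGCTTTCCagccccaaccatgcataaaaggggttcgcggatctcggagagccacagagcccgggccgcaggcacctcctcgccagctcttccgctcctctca
VCAM1: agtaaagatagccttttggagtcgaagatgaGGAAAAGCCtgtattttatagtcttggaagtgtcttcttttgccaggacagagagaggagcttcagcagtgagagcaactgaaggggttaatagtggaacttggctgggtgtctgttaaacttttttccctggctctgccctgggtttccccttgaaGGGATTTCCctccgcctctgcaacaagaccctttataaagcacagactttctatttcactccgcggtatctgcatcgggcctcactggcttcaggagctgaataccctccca
TNFAIP2: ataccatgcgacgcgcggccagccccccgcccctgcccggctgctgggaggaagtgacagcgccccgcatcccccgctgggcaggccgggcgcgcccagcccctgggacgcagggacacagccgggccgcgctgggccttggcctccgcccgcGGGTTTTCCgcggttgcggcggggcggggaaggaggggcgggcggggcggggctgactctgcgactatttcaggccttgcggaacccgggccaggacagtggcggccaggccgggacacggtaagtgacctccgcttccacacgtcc
The NFKBIA window lies at chr14:35404700-35404999 on the minus strand. The others are on the plus strand, ICAM1 at chr19:10270870-10271169, CXCL1 at chr4:73869143-73869442, VCAM1 at chr1:100719492-100719791 and TNFAIP2 at chr14:103123211-103123510. NFKBIA, CXCL1 and VCAM1 each hold 2 matches, and ICAM1 and TNFAIP2 hold 1. Of the 40 members, 32 had a window in the RefSeq table, and 18 of these held at least 1 match. By windows, 20 of the 43 for the members (46.5%) held a match, against 2198 of all 35116 windows (6.26%). A match describes these letters only. The spelling was also one that is known from genes of this list, so the larger share is no independent result.

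STM2457 raised much of the set in both LN229 lines, among them the macrophage factor CSF1, the feedback inhibitor NFKBIA, the adhesion molecule ICAM1 and the dismutase SOD2. LIF fell in both. The genes that rose in both lines included NFKBIA, ICAM1 and TNFAIP3, whose windows hold the spelling above, and SOD2 and RELA, whose windows do not. A gene was called higher or lower where limma's moderated test on log2 of the normalized count plus 1 gave a Benjamini-Hochberg adjusted p under 0.05 over all genes of its table with a mean of at least 10. In LN229-R, 16 of 31 tested members rose and 1 fell, where 38.6% of all 17063 genes tested were called, 21.5% higher and 17.1% lower. In LN229, 15 of 31 rose and 3 fell, where 49.7% of 17107 genes were called, 26.2% higher and 23.6% lower. IL7R in both lines and IL6 in LN229 are counted among these calls, but their DMSO means were under 10, so they entered the test only through the treated group in which they were high. The median log2 change of the members was 1.03 in LN229-R and 0.63 in LN229, against -0.022 and -0.003 over all genes tested. Members called in either direction made up 54.8% of those tested in LN229-R and 58.1% in LN229, the second a share near that of all genes. These changes are on the log2(value + 1) scale, which understates those of low genes. In these bulk libraries, fewer cells expressing a gene and less RNA per cell cannot be told apart. The members not tested in these tables were CXCL2, CXCL5, CXCL12, CCL7, CSF2, CSF3 and VCAM1, which were not listed, and IL32 and CCL20, whose means were under 10.

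**Figure D2:**
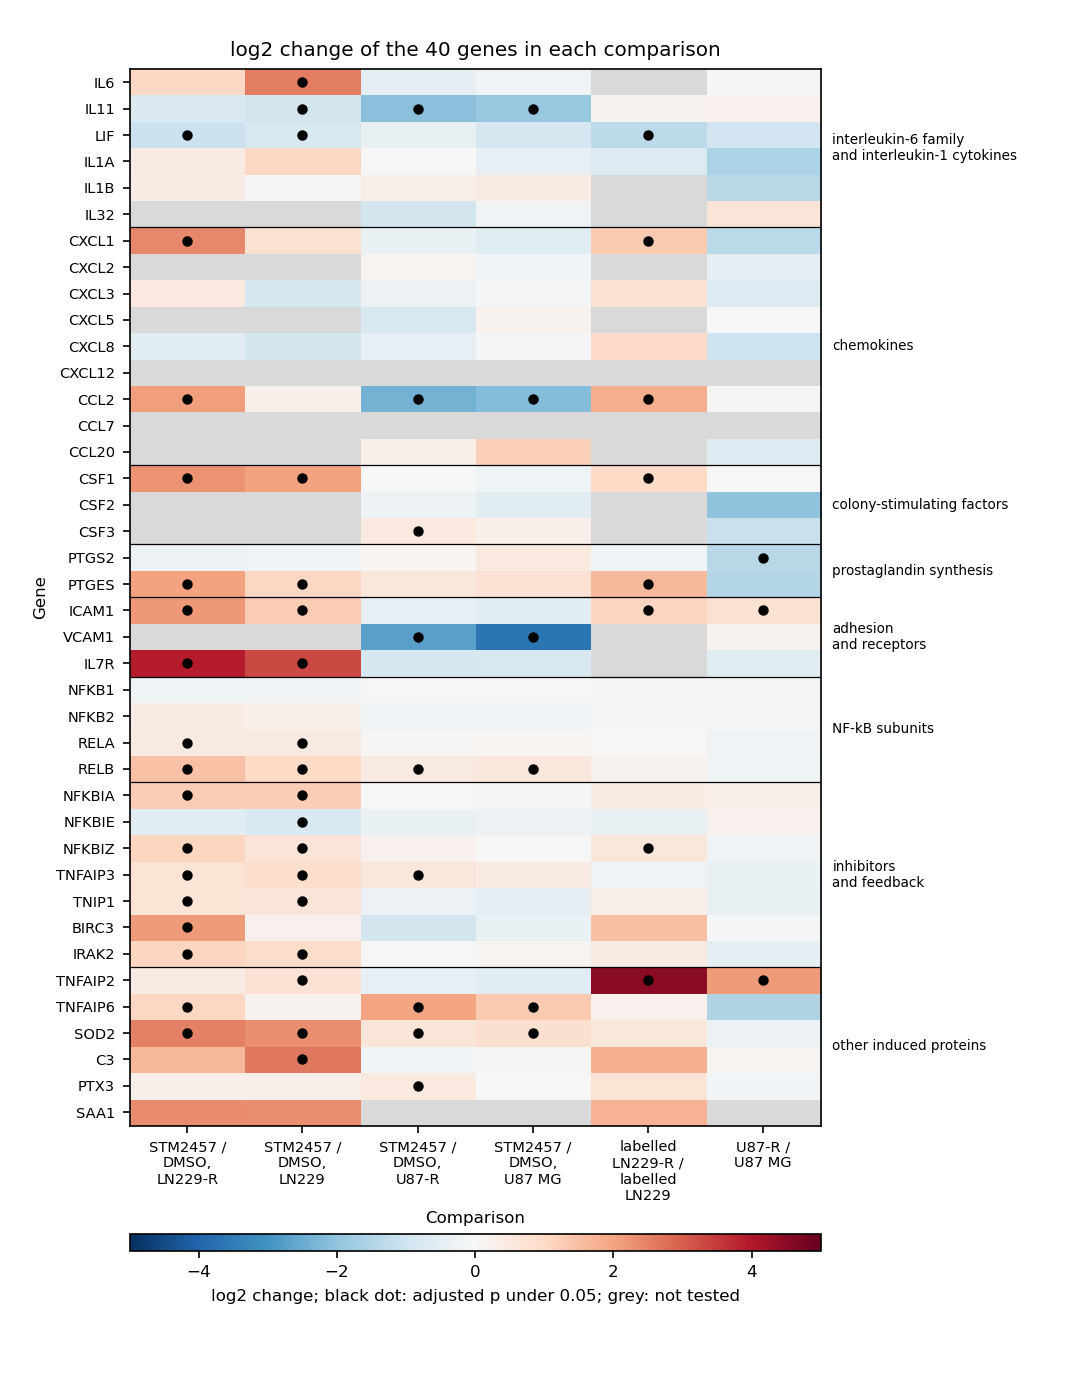
log2 change (colour scale) of the 40 genes (rows, grouped by role) in the 6 comparisons (columns), with a black dot where the adjusted p was under 0.05 and grey where a gene was not tested. CSF1, SOD2, RELB, NFKBIA and ICAM1 carry dots above 0 in both LN229 lines, while VCAM1, CCL2 and IL11 carry dots below 0 in both U87 lines.

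Among the secreted factors, CSF1, which supports the survival and growth of macrophages and microglia, had the lowest adjusted p of the set in both lines. It had 2586, 2531 and 2717 normalized counts in replicates 1 to 3 of LN229-R with STM2457, against 590.0, 562 and 517 with DMSO (log2 change of 2.23, SE 0.10, adjusted p = 2.1e-05). Its counts in LN229 were 3731, 4173 and 3859.8 with STM2457 and 1071, 844 and 994 with DMSO (log2 change of 2.02, SE 0.10, adjusted p = 7.8e-06). All treated libraries lay above all vehicle libraries in both lines, and the treated libraries of a group differed little. CCL2, which draws monocytes into tissue, differed between the lines in its call. In LN229-R it had 1672, 5774 and 4220.4 normalized counts with STM2457 and 564, 1047 and 898 with DMSO (log2 change of 2.09, SE 0.43, adjusted p = 0.0072). The LN229 libraries held 1648, 7371 and 2259.7 with STM2457 and 2453, 2912 and 2316 with DMSO (log2 change of 0.24, SE 0.46, adjusted p = 0.69), so replicate 2 was far above the other treated libraries and the groups overlapped. Without replicate 2 of LN229 with STM2457, the CCL2 change turned to -0.40 with an adjusted p of 0.045.

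CXCL1, a neutrophil attractant, rose in LN229-R, where it had 397, 1346 and 500.5 normalized counts with STM2457 and 76.9, 177 and 133 with DMSO (log2 change of 2.39, SE 0.47, adjusted p = 0.0058). Its change in LN229 was 0.76 (SE 0.40, adjusted p = 0.14), and 1.18 with an adjusted p of 0.023 without LN229 STM2457 replicate 3. CXCL1, CXCL2 and CXCL3 are close relatives, so reads could be shared among them. CXCL8, also a neutrophil attractant, did not pass the test in either line. It had 61.7, 122 and 60.0 normalized counts with STM2457 and 84.6, 154 and 104 with DMSO in LN229-R (log2 change of -0.52, SE 0.35, adjusted p = 0.26). The values in LN229 were 76.4, 206 and 68.8 with STM2457 and 257, 194 and 155 with DMSO (log2 change of -0.94, SE 0.40, adjusted p = 0.082). Treated replicates 1 and 3 of LN229 were below every vehicle library and replicate 2 was not, and without LN229 STM2457 replicate 2 the change was -1.43 with an adjusted p of 0.0011. CXCL3 gave -1.27 with an adjusted p of 0.031 and NFKB1 -0.25 with 0.022 when the same library was left out. The treated mean of CXCL3 in LN229 was 8.97, so it was tested only through the vehicle group, in which it was high. That CXCL3 call is therefore no support for a change.

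IL6, the cytokine that acts through STAT3, was scarce in these lines. It had 20.9, 25.6 and 29.0 normalized counts in LN229 with STM2457 and 5.03, 3.14 and 2.48 with DMSO (log2 change of 2.55, SE 0.40, adjusted p = 0.0012). With a DMSO mean of 3.55, it was tested only because its treated group was high, so that call is no support for a change. In LN229-R it had 8.66, 17.2 and 17.5 with STM2457 and 15.3, 5.84 and 2.42 with DMSO (log2 change of 1.03, SE 0.63, adjusted p = 0.22), so the groups overlapped. LIF and IL11, which signal through the same receptor chain as IL6, had negative changes in both lines, and LIF fell in both. In LN229-R it had 3663, 1686 and 3499 normalized counts with STM2457 and 5964, 5377 and 6457 with DMSO (log2 change of -1.09, SE 0.28, adjusted p = 0.017). In LN229 it had 964, 1613 and 1137 with STM2457 and 2468, 1878 and 2069.6 with DMSO (log2 change of -0.81, SE 0.18, adjusted p = 0.0071). IL11 fell in LN229, by 0.93 on the log2 scale (adjusted p = 0.0043), and had a change of -0.72 in LN229-R (adjusted p = 0.078). IL1A and IL1B, the interleukin-1 ligands, did not pass in either line, with changes between -0.10 and 1.05.

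**Figure D3:**
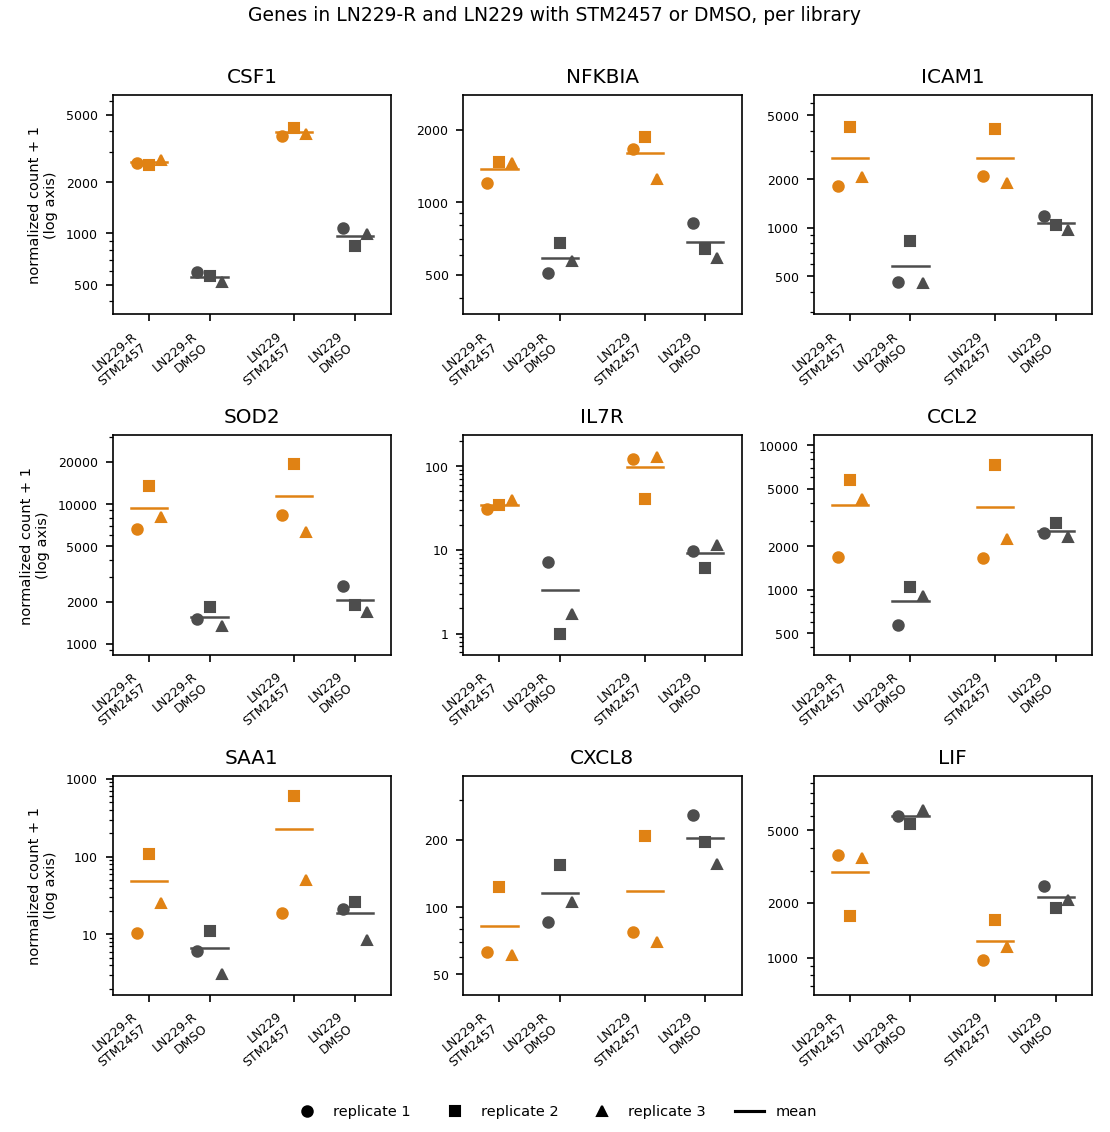
Normalized count plus 1 (log axis) of 9 members in each library of LN229-R and LN229 with STM2457 (orange) or DMSO (grey), with a symbol per replicate and a line at the mean of 3. CSF1 and NFKBIA were higher in every treated library than in every vehicle library of their line, and SAA1, CCL2 and SOD2 were highest in replicate 2 of both treated groups. The lines came from separate tables, so levels are to be read within a line.

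The group listed as inhibitors and feedback genes formed the largest block of calls, with 6 of 7 higher in LN229-R and 5 of 7 higher and 1 lower in LN229. Not all of this group restrain the pathway, as the roles of NFKBIZ and IRAK2 given below show. NFKBIA had 1194, 1469 and 1456 normalized counts with STM2457 and 509, 677 and 570.0 with DMSO in LN229-R (log2 change of 1.23, SE 0.15, adjusted p = 0.00062). It had 1667, 1858 and 1248 with STM2457 and 819, 639 and 586 with DMSO in LN229 (log2 change of 1.22, SE 0.17, adjusted p = 0.00075), again with no overlap. NFKBIZ, a nuclear IkB protein that helps induce late inflammatory genes, had 1193, 978 and 1217 normalized counts with STM2457 in LN229-R and 519, 487 and 602 with DMSO (log2 change of 1.07, SE 0.14, adjusted p = 0.0009). IRAK2, a kinase of the interleukin-1 receptor complex, had 346, 341 and 328 with STM2457 and 141, 179 and 156 with DMSO in that line (log2 change of 1.09, SE 0.16, adjusted p = 0.0015). TNIP1, which binds the ubiquitin-editing enzyme encoded by TNFAIP3, had 1775, 2006 and 1599 in LN229 with STM2457 and 1192, 1163 and 1098 with DMSO (log2 change of 0.63, SE 0.10, adjusted p = 0.0012). NFKBIZ and IRAK2 also rose in LN229, by 0.63 and 0.92 on the log2 scale, and TNIP1 rose by 0.70 in LN229-R. TNFAIP3 rose by 0.68 in LN229-R and 0.87 in LN229. BIRC3, an inhibitor of cell death that ubiquitinates pathway components, rose in LN229-R by 2.15 and had a change of 0.21 in LN229 (adjusted p = 0.71). NFKBIE, a further IkB protein, fell by 0.77 in LN229 and had a change of -0.52 in LN229-R (adjusted p = 0.068). Within the IkB class the members thus did not move alike.

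Of the NF-kB subunits, RELA and RELB rose in both lines. NFKB1 and NFKB2 were not called in either with all libraries and no replicate block. RELB, the partner of the NFKB2 product in the non-canonical pathway, had 426, 658 and 569.9 normalized counts in LN229-R with STM2457 and 181, 232 and 175 with DMSO (log2 change of 1.48, SE 0.20, adjusted p = 0.0012). Its change in LN229 was 0.99 (adjusted p = 0.018). RELA, the main activating subunit, moved less: it had 3371, 3541 and 3344 normalized counts in LN229 with STM2457 and 2405, 2500.4 and 2508 with DMSO (log2 change of 0.47, SE 0.07, adjusted p = 0.001). In LN229-R the RELA change was 0.43 (adjusted p = 0.0084). NFKB2 had changes of 0.43 and 0.27, and NFKB1 of -0.20 and -0.19, in LN229-R and LN229, with adjusted p from 0.076 to 0.23.

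ICAM1 rose in both lines, and it and IL7R were the cell surface members tested. ICAM1, the ligand of leukocyte integrins, had 1813, 4260.5 and 2085 normalized counts in LN229-R with STM2457 and 457, 828 and 452 with DMSO (log2 change of 2.18, SE 0.35, adjusted p = 0.0023). Its counts in LN229 were 2109, 4101 and 1905 with STM2457 and 1191, 1039 and 968 with DMSO (log2 change of 1.26, SE 0.26, adjusted p = 0.0043). Replicate 2 was the highest treated library in both lines, and every treated library still exceeded every vehicle library. IL7R, the receptor of interleukin-7, started from very low levels. It had 29.8, 33.1 and 38.3 normalized counts in LN229-R with STM2457 and 6.12, 0 and 0.716 with DMSO, where 1 library was at 0 (log2 change of 3.91, SE 0.71, adjusted p = 0.0041). The LN229 libraries held 121, 39.3 and 130.0 with STM2457 and 8.63, 5.08 and 10.5 with DMSO (log2 change of 3.30, SE 0.49, adjusted p = 0.00097). Its DMSO means were 2.28 in LN229-R and 8.08 in LN229, so IL7R reached the mean of 10 only through the treated group, and its calls are no support for a change. With a vehicle library at 0, the value in LN229-R also rests on the pseudocount and is no bound.

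SOD2, the mitochondrial superoxide dismutase and a classical NF-kB target, was among the most abundant members. It had 6599.5, 13465 and 8126 normalized counts in LN229-R with STM2457 and 1496, 1840.4 and 1336 with DMSO (log2 change of 2.54, SE 0.25, adjusted p = 0.00028). The values in LN229 were 8381, 19348 and 6296 with STM2457 and 2598, 1886 and 1686 with DMSO (log2 change of 2.32, SE 0.37, adjusted p = 0.0013). PTGES, which makes prostaglandin E2 from the product of PTGS2, had 288, 179 and 184 in LN229-R with STM2457 and 41.8, 63.8 and 53.8 with DMSO (log2 change of 1.99, SE 0.27, adjusted p = 0.0011). PTGES also rose in LN229, by 1.03 (adjusted p = 0.017), while PTGS2, the inducible cyclooxygenase upstream of it, was called in neither line. PTGS2 had 401, 443 and 422 normalized counts with STM2457 and 528, 515 and 511 with DMSO in LN229-R (log2 change of -0.30, SE 0.12, adjusted p = 0.082). In LN229 it had 222, 619 and 405 with STM2457 and 439, 427 and 444 with DMSO (log2 change of -0.19, SE 0.31, adjusted p = 0.63). The treated PTGS2 values thus lay below all vehicle values in LN229-R, without passing the test, and on both sides of them in LN229. TNFAIP6, a hyaluronan-binding protein, had 467, 464 and 549 normalized counts with STM2457 and 236, 219 and 262 with DMSO in LN229-R (log2 change of 1.04, SE 0.15, adjusted p = 0.0013), and its change in LN229 was 0.17 (adjusted p = 0.57).

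The acute-phase members showed the widest scatter. C3, the central complement component, had 1514, 3231 and 668 normalized counts in LN229 with STM2457 and 286, 209 and 217 with DMSO (log2 change of 2.65, SE 0.47, adjusted p = 0.0023), with no overlap. In LN229-R it had 52.8, 1509.6 and 118 with STM2457 and 65.3, 156 and 27.9 with DMSO (log2 change of 1.67, SE 1.15, adjusted p = 0.28), where replicate 2 alone was far above the rest. SAA1, serum amyloid A, had 9.38, 108 and 24.3 normalized counts with STM2457 and 5.13, 9.94 and 2.05 with DMSO in LN229-R (log2 change of 2.38, SE 0.86, adjusted p = 0.06). Its counts in LN229 were 18.0, 605 and 48.9 with STM2457 and 20.1, 25.4 and 7.38 with DMSO (log2 change of 2.32, SE 1.11, adjusted p = 0.11), again with replicate 2 far above its group. SAA1 has a close copy in the genome, so its reads are uncertain as well. TNFAIP2, an endothelial and myeloid target of tumour necrosis factor, rose by 0.72 in LN229 (adjusted p = 0.034) and PTX3, a soluble pattern receptor, was called in neither line.

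In LN229-R the libraries of equal number moved together. With the replicate number as a block, 21 members were called instead of 17, and 8444 genes instead of 6591. The added calls were NFKB2 (adjusted p = 0.034) and SAA1 (0.015), both higher with STM2457, and IL11 (0.04) and NFKBIE (0.024), both lower. Without 1 library, NFKB2, IL11 and SAA1 were also called in LN229-R, at 0.55 without DMSO replicate 2 (adjusted p = 0.042), -0.91 without STM2457 replicate 2 (0.042) and 3.16 without STM2457 replicate 1 (0.024). SAA1 gave 3.38 in LN229 without STM2457 replicate 1 (adjusted p = 0.028). SAA1 too had a DMSO mean under 10 in LN229-R, at 5.71, so its calls there are no support for a change.

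Leaving out 1 library at a time, 14 of the 17 calls in LN229-R and 14 of the 18 in LN229 passed in every fit. In LN229-R the calls of TNFAIP3, BIRC3 and LIF were lost in some of these fits, with adjusted p up to 0.10, 0.065 and 0.060. They were TNFAIP3 without STM2457 replicate 2 or 3 or DMSO replicate 2 or 3, BIRC3 without STM2457 replicate 3 or DMSO replicate 1 or 3, and LIF without DMSO replicate 1 or 3. In LN229 the calls of TNFAIP2, TNFAIP3, RELB and PTGES were lost, with adjusted p up to 0.12, 0.085, 0.069 and 0.064. Leaving out DMSO replicate 2 or DMSO replicate 3 removed each of these 4. TNFAIP2 also failed without DMSO replicate 1 or STM2457 replicate 1 or 3, TNFAIP3 without STM2457 replicate 2, and PTGES without STM2457 replicate 1.

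Both LN229 lines shared 12 members that rose, namely CSF1, ICAM1, IL7R, IRAK2, NFKBIA, NFKBIZ, PTGES, RELA, RELB, SOD2, TNFAIP3 and TNIP1, and 1 that fell, LIF. The 12 made up 12 of the 16 that rose in LN229-R and 12 of the 15 that rose in LN229. IL7R is counted in these numbers and in the shares below. It was tested in both lines only through its treated group, so it is no support for a shared rise. Over the 16511 genes tested in both lines, 3204 were called higher in both, 88.3% of those higher in LN229-R and 74.2% of those higher in LN229, against 75% and 80% for the members. The overlap of the members was thus near that of all genes. The effects of STM2457 in the lines were then set against each other in 1 fit of 12 libraries. No member was called, where 0.00606% of 16511 genes tested (1 gene) were called, and 7 of 31 members had an unadjusted p under 0.05, against 651 of all genes. Those 7 were TNFAIP6, CCL2, BIRC3, NFKBIZ, CXCL1, PTGES and CXCL3, all with the larger value in LN229-R. Of them, CXCL3 was tested in LN229 only through its vehicle group, in which it was high. The difference for CCL2 was 1.84 on the log2 scale (SE 0.73, unadjusted p = 0.027), and for NFKBIA 0.01 (SE 0.24). A missed threshold does not show equal effects, and SEs of this size leave room for a difference in most members.

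STM2457 changed fewer of the genes in the U87 lines, and the falls were the largest changes. VCAM1, CCL2 and IL11 fell in both U87-R and U87 MG, while SOD2, RELB and TNFAIP6 rose in both. In U87-R, 6 of 37 tested members rose and 3 fell, where 14.7% of 16185 genes tested were called, 8.46% higher and 6.2% lower. In U87 MG, 3 of 37 rose and 3 fell, where 13.6% of 16407 genes were called, 7.86% higher and 5.72% lower. The counts in U87 MG were thus near the share of all genes. The median log2 change of the members was -0.13 in U87-R and -0.06 in U87 MG, against -0.005 and -0.012 over all genes. CXCL12 and SAA1 had means under 10, as did CCL7 in U87 MG, and CCL7 was not listed in the U87-R table.

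VCAM1, the integrin ligand that holds leukocytes at vessel walls, had the largest change. It had 38.2, 32.9 and 27.4 normalized counts in U87-R with STM2457 and 268, 175 and 225 with DMSO (log2 change of -2.72, SE 0.25, adjusted p = 0.00064). Its counts in U87 MG were 51.4, 8.16 and 8.83 with STM2457 and 315, 186 and 164 with DMSO (log2 change of -3.67, SE 0.63, adjusted p = 0.0071). Every treated library was below every vehicle library, although replicate 1 of treated U87 MG stood above the other treated libraries. VCAM1 was not listed in the LN229 tables, so no value can be set beside it. ICAM1, the related adhesion molecule, was not called, with changes of -0.41 in U87-R (adjusted p = 0.051) and -0.56 in U87 MG (adjusted p = 0.08).

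CCL2 had 46.0, 26.5 and 57.0 normalized counts in U87-R with STM2457 and 153, 148 and 461 with DMSO (log2 change of -2.38, SE 0.46, adjusted p = 0.011). The U87 MG libraries held 62.2, 34.7 and 59.5 with STM2457 and 185, 176 and 363 with DMSO (log2 change of -2.15, SE 0.34, adjusted p = 0.0051). Replicate 3 was the highest vehicle library in both lines, and no group overlapped. CXCL8, far more abundant than CCL2 in these normalized counts without a correction for gene length, was not called. It had 2255, 2028 and 1424 in U87-R with STM2457 and 2569, 2433 and 2429.9 with DMSO (log2 change of -0.41, SE 0.16, adjusted p = 0.13), and 3164, 6524 and 7738 with STM2457 and 2782, 6729 and 9274 with DMSO in U87 MG (log2 change of -0.04, SE 0.45, adjusted p = 0.96). In U87 MG the spread between replicates exceeded any difference between treatments. None of the other 5 chemokines tested was called in either line, with changes from -0.79 (CXCL5 in U87-R) to 1.18 (CCL20 in U87 MG).

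IL11 had 239.9, 207 and 385 normalized counts in U87-R with STM2457 and 964, 1117 and 1383 with DMSO (log2 change of -2.09, SE 0.23, adjusted p = 0.0013). The values in U87 MG were 189, 295 and 393 with STM2457 and 493, 1081 and 2105 with DMSO (log2 change of -1.89, SE 0.47, adjusted p = 0.031), a group in which vehicle replicate 1 was much lower than the others. IL6 had 998, 773 and 1099.8 in U87-R with STM2457 and 1220.5, 1264 and 1559.6 with DMSO (log2 change of -0.50, SE 0.16, adjusted p = 0.066). In U87 MG it had 910.0, 1518 and 1797 with STM2457 and 1012, 1806 and 1992 with DMSO (log2 change of -0.18, SE 0.30, adjusted p = 0.73). IL6 was thus lower in each treated U87-R library than in each vehicle library but did not pass the main fit, and it overlapped in U87 MG. With the replicate number as a block, IL6 was called in U87-R (adjusted p = 0.0081). LIF, IL1A, IL1B and IL32 were not called, with changes from -0.92 to 0.36.

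**Figure D4:**
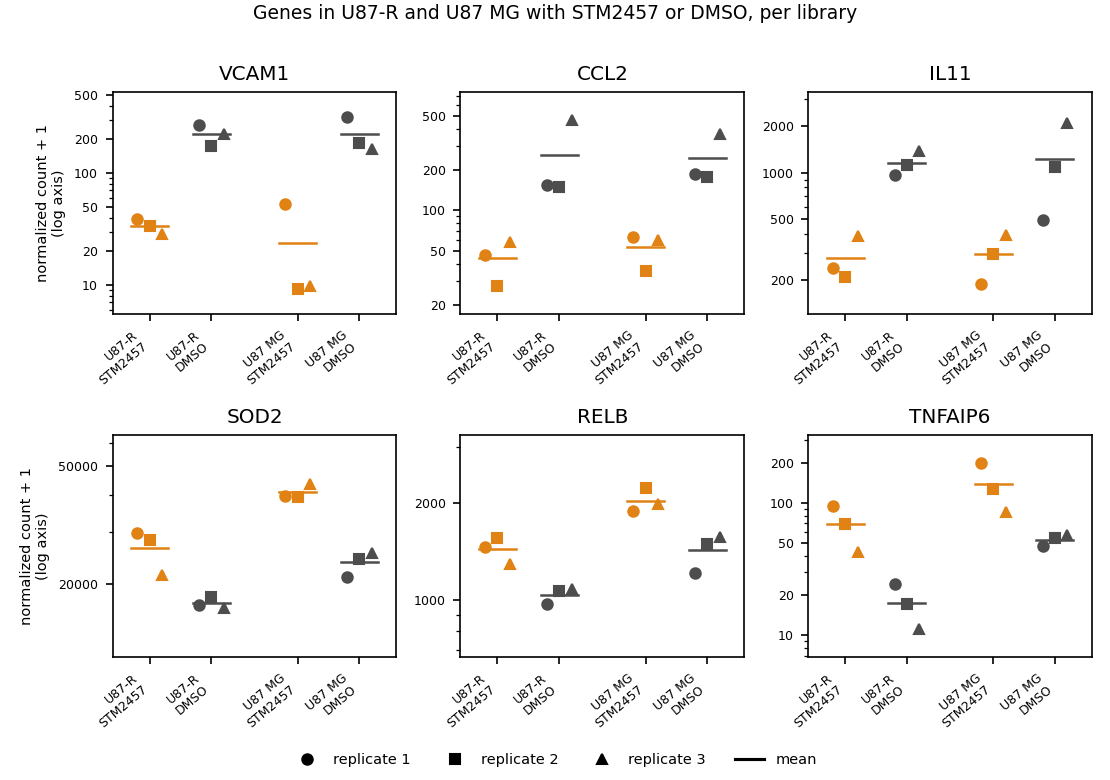
Normalized count plus 1 (log axis) of the 6 members called in both U87 lines, in each library of U87-R and U87 MG with STM2457 (orange) or DMSO (grey), with a symbol per replicate and a line at the mean of 3. VCAM1, CCL2 and IL11 were lower, and SOD2, RELB and TNFAIP6 higher, in every treated library than in every vehicle library of the same line. The lines came from separate tables, so levels are to be read within a line.

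SOD2 had 29786, 28229 and 21439 normalized counts in U87-R with STM2457 and 16967, 18033 and 16613 with DMSO (log2 change of 0.61, SE 0.13, adjusted p = 0.016). Its counts in U87 MG were 39677, 39321 and 43480.0 with STM2457 and 21092, 24354 and 25484 with DMSO (log2 change of 0.79, SE 0.11, adjusted p = 0.0033). SOD2 was the member with the lowest adjusted p in U87 MG. TNFAIP6 had 94.5, 68.5 and 41.6 in U87-R with STM2457 and 23.4, 16.3 and 10.1 with DMSO (log2 change of 1.97, SE 0.42, adjusted p = 0.016). The U87 MG libraries held 201, 126 and 85.1 with STM2457 and 46.2, 53.0 and 56.1 with DMSO (log2 change of 1.31, SE 0.32, adjusted p = 0.028). RELB had 1459, 1565 and 1294 in U87-R with STM2457 and 969, 1062 and 1085 with DMSO (log2 change of 0.47, SE 0.11, adjusted p = 0.028), and 1896, 2238 and 1987 with STM2457 and 1214, 1497 and 1568 with DMSO in U87 MG (log2 change of 0.52, SE 0.12, adjusted p = 0.027). None of these 3 genes overlapped between treatments in either line. The remaining calls were in U87-R. CSF3, the granulocyte factor, had 5289.8, 5631 and 6128 with STM2457 and 3956, 4554 and 3631 with DMSO (log2 change of 0.49, SE 0.11, adjusted p = 0.02). PTX3 had 2639.7, 2462 and 2270.0 with STM2457 and 1601, 1730.2 and 1902 with DMSO (log2 change of 0.49, SE 0.11, adjusted p = 0.018). TNFAIP3 rose by 0.55 in U87-R (adjusted p = 0.033) and had a change of 0.41 in U87 MG (adjusted p = 0.053).

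NFKBIA, the feedback inhibitor that rose in both LN229 lines, was not called here. It had 2602, 2749.6 and 2875 normalized counts in U87-R with STM2457 and 2343, 2667 and 3537 with DMSO (log2 change of -0.03, SE 0.15, adjusted p = 0.9). The values in U87 MG were 2005, 2699 and 2927 with STM2457 and 2002, 2806 and 3211 with DMSO (log2 change of -0.06, SE 0.19, adjusted p = 0.87). PTGS2 had 471, 519.9 and 310.5 in U87-R with STM2457 and 465, 471 and 293 with DMSO (log2 change of 0.08, SE 0.24, adjusted p = 0.86). In U87 MG it had 979, 1931 and 2069 with STM2457 and 778, 1596 and 1168 with DMSO (log2 change of 0.48, SE 0.32, adjusted p = 0.36). Neither gene passed the main fit in either line, and the groups overlapped. PTGS2 in U87 MG was higher with STM2457 in each same-numbered pair, and was called with the replicate number as a block (adjusted p = 0.022). RELA, NFKB1 and NFKB2, the other subunits, had changes between -0.20 and 0.11 and were not called.

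In U87-R the libraries of equal number moved together, and with the replicate number as a block 17 members were called instead of 9, and 4796 genes instead of 2373. Members that gained a call with the block were ICAM1, BIRC3, LIF, IL6, TNIP1, PTGES, CXCL8 and TNFAIP2. In U87 MG, where correlations of same-numbered libraries were not all over 0.1, the block called 14 members instead of 6. Over all genes it called 4137 there instead of 2228. The members added in U87 MG were TNFAIP3, PTGS2 and PTGES as higher and ICAM1, LIF, TNIP1, IL7R and TNFAIP2 as lower with STM2457. VCAM1, IL11 and CCL2 passed in U87-R whichever library was left out, and the other 6 calls were lost in 2 to 4 of the 6 fits, all 6 without STM2457 replicate 2 (adjusted p from 0.072 to 0.13 at the highest). All but CSF3 were also lost without STM2457 replicate 1, all but CSF3 without DMSO replicate 2, and all but TNFAIP6 without DMSO replicate 1. In U87 MG, SOD2, CCL2 and VCAM1 passed in every such fit. RELB, TNFAIP6 and IL11 were lost in 4 or 5, each without STM2457 replicate 2 or DMSO replicate 2, with adjusted p up to 0.12, 0.093 and 0.10. IL11 and TNFAIP6 were also lost without STM2457 replicate 1 and without DMSO replicate 3, RELB and TNFAIP6 without DMSO replicate 1, and RELB without STM2457 replicate 3. Calls were also gained without 1 library. In U87-R without STM2457 replicate 3, ICAM1, LIF and IL6 were called lower (adjusted p = 0.029, 0.025 and 0.042). In U87 MG, ICAM1 and TNFAIP2 were called lower and TNFAIP3 higher without STM2457 replicate 1 (0.037, 0.01 and 0.03), and LIF and TNIP1 lower without DMSO replicate 1 (0.024 and 0.034).

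Set against each other in 1 fit of 12 libraries, the STM2457 effects in U87-R and U87 MG gave no member a call. Over all 15680 genes tested 0% were called with limma, 586 had an unadjusted p under 0.05, and 0 of 37 members did. The difference for VCAM1 was 0.96 (SE 0.75) and for CCL2 -0.23 (SE 0.63) on the log2 scale. SEs of this size leave room for a difference between the lines.

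RELB and SOD2 were the members that rose with STM2457 in all 4 lines. The SOD2 change was 2.54 in LN229-R, 2.32 in LN229, 0.61 in U87-R and 0.79 in U87 MG. That of RELB was 1.48, 0.99, 0.47 and 0.52 in the same order of lines. CCL2 was the member called in opposite directions, higher in LN229-R and lower in both U87 lines. The difference between families was not tested, since medium and kit differ with the family.

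U87-R, resistant and with temozolomide in its medium, differed from U87 MG in few calls among the genes. TNFAIP2 and ICAM1 were higher and PTGS2 lower in U87-R than in U87 MG, both in DMSO. These were 2 of 37 tested members higher and 1 lower, where 4.27% of 16306 genes were called, 3.13% higher and 1.15% lower. The median log2 change of the members was -0.20, against -0.014 over all genes, and 27 of the 37 were below 0. TNFAIP2 had 4529.9, 5378 and 7508 normalized counts in U87-R and 1417, 1225 and 1238 in U87 MG (log2 change of 2.14, SE 0.17, adjusted p = 0.00054). ICAM1 had 1637, 1663 and 1927 in U87-R and 1259.6, 978 and 846 in U87 MG (log2 change of 0.78, SE 0.15, adjusted p = 0.024). PTGS2 had 467, 475 and 293 in U87-R and 732, 1500.1 and 1093 in U87 MG (log2 change of -1.40, SE 0.27, adjusted p = 0.023). None of the 3 overlapped between the lines. PTGES, LIF, IRAK2, TNFAIP6, CXCL1, IL1A, SOD2, TNFAIP3 and IL7R were also lower in each U87-R library than in each U87 MG library without passing the test, with adjusted p from 0.059 to 0.43. With PTGS2 these made 10 of 37 members (27%) below in every library, where 10.8% of all genes tested were, and 2 members (5.41%) lay above in every library, where 12.6% of all genes did.

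The other genes followed in every comparison were not called here. CXCL8 had 2619.5, 2492 and 2468 normalized counts in U87-R and 2576, 6221 and 8536 in U87 MG (log2 change of -1.03, SE 0.36, adjusted p = 0.17). IL6 had 1227, 1277 and 1562 in U87-R and 938, 1672 and 1836 in U87 MG (log2 change of -0.08, SE 0.23, adjusted p = 0.91). NFKBIA had 2414, 2761 and 3631 in U87-R and 1829.8, 2559.6 and 2916 in U87 MG (log2 change of 0.28, SE 0.20, adjusted p = 0.55), and CCL2 156, 151 and 467 in U87-R and 172, 163 and 334 in U87 MG (log2 change of 0.08, SE 0.45, adjusted p = 0.96). For each of them the lines overlapped, and for CXCL8 this came from replicate 1 of U87 MG. Without U87 MG DMSO replicate 1, the library that was lowest in 31 of the 37 members, 11 members were called instead of 3. Over all genes tested, 600 were called in that fit instead of 697. The 8 that then passed as lower in U87-R were LIF, PTGES, CSF3, CXCL1, CXCL2, CXCL3, CXCL8 and IL1B, with log2 changes from -0.89 (CXCL2, adjusted p = 0.028) to -2.12 (IL1B, adjusted p = 0.0019). Without replicate 2 or 3 of U87-R or of U87 MG, the calls of PTGS2 and ICAM1 were both lost. Without U87-R DMSO replicate 1, 2 members were called, TNFAIP2 and either PTGS2 or ICAM1. The adjusted p of PTGS2 and ICAM1 reached up to 0.10 and 0.12 over these fits, and TNFAIP2 passed throughout.

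**Figure D5:**
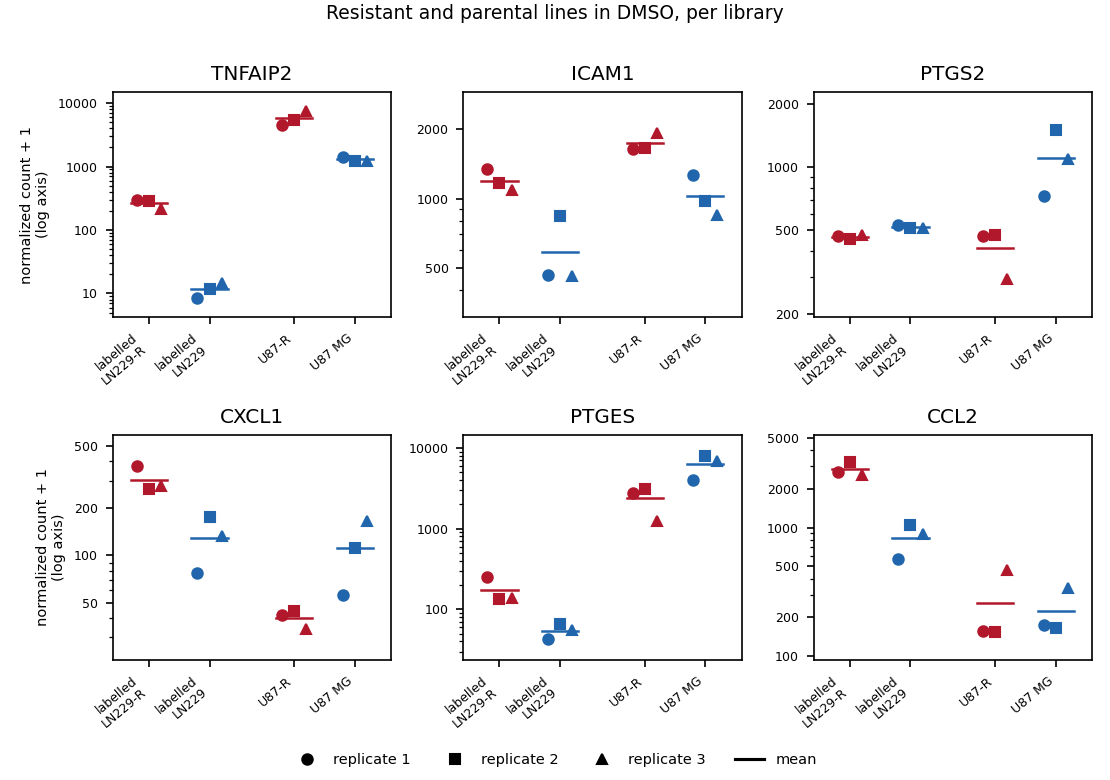
Normalized count plus 1 (log axis) of 6 members in DMSO, in the resistant (red) and parental (blue) libraries of each family, with a symbol per replicate and a line at the mean of 3. TNFAIP2 was higher in the libraries labelled LN229-R than in those labelled LN229 and higher in U87-R than in U87 MG, PTGS2 was lower in U87-R, and the LN229 names conflict between tables. The families came from separate tables, so levels are to be read within a family.

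In the LN229 family, the libraries labelled LN229-R had 7 of 28 tested members higher and 1 lower than those labelled LN229 did, where 9.25% of 17136 genes were called, 5.6% higher and 3.65% lower. The median log2 change was 0.49, against -0.007 over all genes. If the names in the STM2457 tables are the right ones, each of these directions turns round. TNFAIP2 had 293, 286 and 210.0 normalized counts in the libraries labelled LN229-R and 7.39, 10.9 and 13.8 in those labelled LN229 (log2 change of 4.52, SE 0.27, adjusted p = 0.00013). In the STM2457 tables TNFAIP2 was instead low in LN229-R with DMSO, at 7.15, 10.6 and 13.4, and high in LN229 with DMSO, at 287, 282 and 207. Whether TNFAIP2 moved the same way with resistance in both families thus turns on the naming.

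CCL2 had 2734, 3235 and 2577 normalized counts in the libraries labelled LN229-R and 564, 1042 and 895 in those labelled LN229 (log2 change of 1.81, SE 0.21, adjusted p = 0.0021). CSF1 had 1212, 952 and 1123 in the labelled LN229-R libraries and 587, 556 and 513 in the labelled LN229 libraries (log2 change of 0.98, SE 0.12, adjusted p = 0.0022), and LIF, the single member called lower, had 2786, 2113 and 2332 in the labelled LN229-R libraries and 5999, 5382 and 6474 in the labelled LN229 libraries (log2 change of -1.31, SE 0.12, adjusted p = 0.00064). None of these overlapped. PTGES had 253, 134 and 135 in the libraries labelled LN229-R and 42.2, 64.1 and 54.1 in those labelled LN229 (log2 change of 1.64, SE 0.29, adjusted p = 0.013). CXCL1 had 370.2, 263 and 277 in the labelled LN229-R libraries and 76.7, 176 and 132 in the labelled LN229 libraries (log2 change of 1.30, SE 0.29, adjusted p = 0.032). ICAM1 had 1338, 1163 and 1086 in the labelled LN229-R libraries and 465, 838 and 459 in the labelled LN229 libraries (log2 change of 1.08, SE 0.23, adjusted p = 0.024), again without overlap, and here replicate 2 was the highest of the libraries labelled LN229. NFKBIZ had 841, 726 and 781 in the labelled LN229-R libraries and 517, 482 and 597 in the labelled LN229 libraries (log2 change of 0.56, SE 0.12, adjusted p = 0.023).

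CXCL8 had 281, 212 and 169.7 normalized counts in the libraries labelled LN229-R and 84.2, 153 and 104 in those labelled LN229 (log2 change of 0.97, SE 0.26, adjusted p = 0.06). NFKBIA had 927, 721 and 661 in the labelled LN229-R libraries and 514, 679.9 and 574 in the labelled LN229 libraries (log2 change of 0.38, SE 0.16, adjusted p = 0.18), and PTGS2 470.1, 455 and 474 in the labelled LN229-R libraries and 529, 515 and 511 in the labelled LN229 libraries (log2 change of -0.15, SE 0.09, adjusted p = 0.37). None of these 3 passed the test. IL6 had a mean under 10 and was not tested, at 6.10, 3.80 and 3.00 normalized counts in the libraries labelled LN229-R and 13.7, 5.21 and 2.17 in those labelled LN229. IL1B, IL32, CCL20 and IL7R also had means under 10, and CXCL2, CXCL5, CXCL12, CCL7, CSF2, CSF3 and VCAM1 were not listed.

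Libraries of equal number moved together in this table, and with the replicate number as a block 13 members were called instead of 8, and 2600 genes instead of 1585. Without LN229 DMSO replicate 2, 14 members and 3139 genes were called, the added members being CXCL8, C3, SAA1, SOD2, BIRC3 and TNIP1. SAA1 had a mean of 5.4 in the libraries labelled LN229, so it was tested only through the group in which it was high. Its call is no support for a difference. TNFAIP2, CCL2, CSF1, PTGES and LIF passed whichever library was left out. ICAM1, NFKBIZ and CXCL1 were each lost without any 1 of the 3 libraries labelled LN229-R, with adjusted p up to 0.10, 0.10 and 0.13. ICAM1 and NFKBIZ were also lost without LN229 DMSO replicate 1, and ICAM1 and CXCL1 without LN229 DMSO replicate 3.

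A list of 64 further genes of the pathway was read beside the members: receptors, signalling proteins, STAT3 and AP-1 partners, mRNA decay factors and prostaglandin enzymes. With STM2457, 26 of 57 tested rose and 5 fell in LN229-R, 29 of 58 rose and 13 fell in LN229, 10 of 57 rose and 4 fell in U87-R, and 12 of 59 rose and 4 fell in U87 MG. In either direction these were 54.4%, 72.4%, 24.6% and 27.1% of those tested, against 38.6%, 49.7%, 14.7% and 13.6% of all genes in the same order of lines. The 4 with the lowest adjusted p were the same in both LN229 lines. ATF3, a stress-induced factor that restrains inflammatory transcription, rose by 3.02 in LN229-R and 2.89 in LN229. CEBPD, a partner of NF-kB at acute-phase genes, rose by 4.14 and 2.60. IL6R, the ligand-binding chain of the IL6 receptor, rose by 2.85 and 2.58. MYD88, the adaptor of interleukin-1 and Toll-like receptors, rose by 1.32 and 1.34. Their adjusted p lay between 6e-06 and 0.00013.

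In the U87 lines IRAK1 and MYD88 were among the 4 pathway genes with the lowest adjusted p in both. IRAK1, the kinase that MYD88 recruits, rose by 0.73 in U87-R and 0.74 in U87 MG, and MYD88 rose by 0.81 and 0.63. In U87-R the others were PTGS1, the constitutive cyclooxygenase, which fell by 1.72, and ZC3H12A, a ribonuclease that degrades cytokine mRNA, which rose by 0.74. In U87 MG they were CYLD, a deubiquitinase that restrains the pathway, with 0.63, and ZFP36L2, an AU-rich mRNA decay factor, with 0.60. CYLD, MYD88, RIPK1, TNIP2, TRADD and TRAF6 rose in all 4 lines, and PTGES3 fell in all 4. IRAK1 rose in both U87 lines and fell in both LN229 lines.

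For resistance, 2 of 57 pathway genes tested were higher and 3 lower in U87-R than in U87 MG, and the libraries labelled LN229-R had 6 of 58 higher and 1 lower. That was 8.77% of those tested in the U87 table and 12.1% in the LN229 table, against 4.27% and 9.25% of all genes. PTGS1 had the lowest adjusted p of the pathway genes in both tables. It had 800.4, 681 and 991 normalized counts in U87-R and 22.2, 18.8 and 74.2 in U87 MG (log2 change of 4.65, SE 0.45, adjusted p = 0.0012). In the LN229 table it had 126, 66.3 and 69.1 in the libraries labelled LN229-R and 7.83, 6.64 and 9.23 in those labelled LN229 (log2 change of 3.26, SE 0.33, adjusted p = 0.001). Its mean in the libraries labelled LN229 was 7.9, so it passed the mean of 10 there only through the group in which it was high, and that call is no support for a difference. In U87-R the constitutive cyclooxygenase was thus higher while PTGS2 was lower. OSMR, the oncostatin M receptor chain, was lower in U87-R by a log2 change of -1.37 and higher in the libraries labelled LN229-R by 0.75. TNIP2, which restrains NF-kB signalling, was lower in U87-R (-0.70), as was CSF1R, the receptor of CSF1 (-0.79). In the LN229 table CEBPD was higher (1.47) and CSF2RA, a chain of the receptor for CSF2, lower (-1.33) in the libraries labelled LN229-R.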

How the data were processed

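Poly(A) RNA of 24 libraries was measured in 6 tables of 6 libraries, which the authors deposited as normalized counts, a signal without whole reads, scaled anew for each table. Per the submitters' processing notes, Trimmomatic 0.39, STAR 2.7.11a, Salmon 1.4.0 and DESeq2 were used with GRCh38 (hg38), and their settings are not given in the sources used here. The normalization factors differed between genes, so whole reads could not be recovered and no count model was fitted. Per-library depth in reads is therefore unknown, and the number of libraries limits the precision. Genes were joined on Ensembl identifiers without version, and SOD2, which carried different identifiers in the families, was joined by its GENCODE name.

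Genes whose mean in a table reached 10 were fitted there on the scale log2(value + 1), with limma 3.58.1 in R 4.3.3 and a variance trend. A gene was called at an adjusted p (Benjamini and Hochberg over the table) under 0.05. Differences between STM2457 effects came from joint fits of 12 libraries with an intercept for each table and line. Samples were grouped by their titles, and 3 replicates made up each group. Replicate numbers counted as pairing libraries where every correlation of same-numbered deviations from the group means was over 0.1. That held for the LN229 resistance table (0.114 to 0.204) and for STM2457 in U87-R (0.114 to 0.298) and LN229-R (0.102 to 0.321).

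Members, lists, tests and alternatives were chosen with earlier results of these data known. Values per library are given for up to 8 called members per comparison by adjusted p, for IL6, CXCL8, CCL2, PTGS2 and NFKBIA in each, and for members that the text singles out after their values were seen. Of 64 further pathway genes, the 4 called with the lowest adjusted p were named, and others were named for calls in all 4 lines or opposite calls. The alternatives were other pseudocounts, filters, totals, variance models, the replicate block and leaving out each library. The fit was tested on simulated data. Figures used Python 3.11.15 with matplotlib 3.10.9, pandas 2.3.3 and numpy 2.4.6, and promoter windows came from RefSeq (GRCh38.p14).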

Additional observations from a re-analysis of the deposited data

Results flagged for a closer look

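Some members had changes of opposite sign in the families, with all 3 libraries of the tested condition above all 3 of its control in one family and below them in the other. The differences themselves were not tested, since the families also differ in medium and library kit. With STM2457 in LN229-R and U87-R, the log2 changes were 2.09 and -2.38 for CCL2, 2.18 and -0.41 for ICAM1, 2.15 and -0.94 for BIRC3 and 3.91 and -0.82 for IL7R. Of these, all 4 were called in LN229-R and CCL2 alone in U87-R, and IL7R was tested in LN229-R only through its treated group. They were 4 of 30 members tested in both tables (13.3%), where 3.64% of 13760 genes showed such a pattern. With STM2457 in LN229 and U87 MG, TNFAIP2 had log2 changes of 0.72 and -0.56, called in LN229 and not in U87 MG. It was 1 of 30 members (3.33%), where 4.01% of 13888 genes did so. For resistance, in the libraries labelled LN229-R against those labelled LN229 and in U87-R against U87 MG, the changes were 1.64 and -1.45 for PTGES, 0.43 and -0.48 for IRAK2, 1.30 and -1.35 for CXCL1 and 0.56 and -0.30 for SOD2. PTGES and CXCL1 were called in the LN229 table and none of the 4 in the U87 table. They were 4 of 27 members (14.8%), where 4.23% of 13891 genes did so. If the names in the STM2457 tables are the right ones, these 4 would have changes of the same sign in both families, while ICAM1, TNFAIP2, LIF and PTGS2, which separated the groups in the same direction in both tables as labelled, would have opposite ones, as would PTGS1 of the pathway list.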

How the results depend on the processing

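Fits without 1 library called between 1 and 11 members and 305 to 600 genes in U87-R against U87 MG (3 and 697 with all libraries), and 5 to 14 members and 550 to 3139 genes in the libraries labelled LN229-R against those labelled LN229 (8 and 1585). With STM2457 they called 3 to 7 members and 890 to 1798 genes in U87 MG (6 and 2228), 3 to 12 and 882 to 2192 in U87-R (9 and 2373), 14 to 21 and 6564 to 8621 in LN229 (18 and 8506), and 14 to 18 and 4321 to 6430 in LN229-R (17 and 6591). For the difference of STM2457 effects they called 0 to 5 genes for the U87 lines, 1 to 4 for the LN229 lines, and 0 members. Of single members, CCL2 with STM2457 in LN229 reversed, to -0.40 without LN229 STM2457 replicate 2. With the replicate block 13 members and 2600 genes were called in the LN229 resistance table and 17 and 4796 with STM2457 in U87-R, where the pairing held. Where it did not hold, the block called 8 members and 1176 genes for U87 resistance (correlations 0.0189 to 0.140) and 14 and 4137 for STM2457 in U87 MG (0.0395 to 0.186), and it left the counts for LN229 within 1.5 times (0.0682 to 0.0990). It gave 3 genes for the LN229 difference. The block moved no other count of calls by over 1.5 times. Without a variance trend, 1 member and 396 genes were called for U87 resistance, 951 genes for LN229 resistance, 3 members and 1301 genes for STM2457 in U87 MG and 4 and 1372 in U87-R. The differences of effects gave 1 gene in the U87 family without the trend or with a pseudocount of 5, and in the LN229 family 2 genes without the trend or with a pseudocount of 0.5 and 4 with equal totals. No filter on low values gave 5 members for U87 resistance. The causes were not tested. The LN229 names, 3 libraries per group and the unknown read depth limit what these tables can show.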
